A study of Mus musculus with 6 samples.

Results

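The wild-type (WT) transcriptome of pachytene cells was described from the 2 WT libraries of a series of 6 RNA-seq libraries from mouse testis. Pachytene cells are male germ cells in the long middle stage of the first meiotic prophase. They were purified from mice of about postnatal day 80 by STA-PUT, which separates cells by size as they sediment through an albumin gradient. The study used 3 mice for the WT group and 2 independent experiments, and the labels give no other allele or treatment for these mice. No source used here gives the mouse strain or says whether a library pools mice, so the spread between the libraries may be partly technical. Both files list the same 54532 Ensembl genes, with 1 value per gene in FPKM (fragments per kilobase of gene length, scaled to the number of mapped fragments). Of these genes 47249 were ranked by their mean FPKM. Left out were 65 lower entries of a repeated symbol and 7218 genes called short RNA genes here, by RNA type or by exon length under 200 bases. The FPKM of many short RNA genes rest on very short lengths, but the group also holds longer ribosomal RNA genes, such as mt-Rnr2 with 1582 bases. Pairs of values are given with replicate 1 first and replicate 2 second. With 1 group there is no comparison between conditions, and no test was made.

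At the pachytene stage the paired chromosomes are joined along their length by the synaptonemal complex and complete recombination. The X and Y chromosomes are enclosed in the sex body and silenced, a state called meiotic sex chromosome inactivation. Autosomal genes are meanwhile transcribed strongly under regulators such as MYBL1 (A-MYB), and many of the RNAs made at this stage are stored and translated in spermatids, the haploid cells that form after the divisions.

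The 250 bases before the RefSeq transcription start (GRCm38.p6) are printed for the 4 genes used as pachytene markers. Of these, 3 of the 4 hold a core of the MYB binding motif. Capitals mark the letters TAACGG or, where the core lies on the other strand, CCGTTA.
Ldhc (chr7:46861013-46861262, plus strand): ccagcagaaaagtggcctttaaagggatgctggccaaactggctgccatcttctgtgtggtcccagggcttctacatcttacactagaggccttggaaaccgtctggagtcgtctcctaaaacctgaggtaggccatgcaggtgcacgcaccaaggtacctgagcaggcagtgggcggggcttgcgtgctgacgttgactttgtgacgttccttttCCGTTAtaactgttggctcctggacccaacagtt
Hspa2 (chr12:76404120-76404369, plus strand): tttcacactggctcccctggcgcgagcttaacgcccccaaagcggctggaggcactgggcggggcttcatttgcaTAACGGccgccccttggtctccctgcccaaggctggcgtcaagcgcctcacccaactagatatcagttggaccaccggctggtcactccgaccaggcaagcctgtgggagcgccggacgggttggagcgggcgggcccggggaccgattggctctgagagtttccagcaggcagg
Piwil1 (chr5:128735996-128736245, plus strand): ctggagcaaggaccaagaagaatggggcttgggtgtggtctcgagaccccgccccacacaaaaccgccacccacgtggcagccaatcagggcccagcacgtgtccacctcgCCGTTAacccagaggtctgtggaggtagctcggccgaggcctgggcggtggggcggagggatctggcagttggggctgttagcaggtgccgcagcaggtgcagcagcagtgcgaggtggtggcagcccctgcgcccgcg
Pgk2 (chr17:40208610-40208859, minus strand): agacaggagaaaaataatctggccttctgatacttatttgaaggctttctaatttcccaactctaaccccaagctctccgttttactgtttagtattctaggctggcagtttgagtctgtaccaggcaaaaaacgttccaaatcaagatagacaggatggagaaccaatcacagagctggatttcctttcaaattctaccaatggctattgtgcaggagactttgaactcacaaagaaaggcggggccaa
The first base of the core lay 34 bases before the start in Ldhc, 175 in Hspa2 and 139 in Piwil1. The RefSeq start of Piwil1 lies 33722 bases from the outermost start that GENCODE gives this gene. In 300-base windows, from 250 bases before to 50 after the start, the core was found in 2.86% of the 16506 protein-coding genes that matched the RefSeq table. None of the 4 marker windows held the TATA box letters TATAAA on either strand, which were found in 12.9% of all windows. A match in letters is a description and not a binding site.

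The 4 markers were high in both libraries. Ldhc (ENSMUSG00000030851, chromosome 7, 46861203 to 46878142, plus strand), the lactate dehydrogenase of germ cells, stood at the top of the ranking with 2816 and 2499.7 FPKM. Hspa2 (ENSMUSG00000059970, chromosome 12, 76404176 to 76406938, plus strand), a meiotic HSP70 chaperone, ranked 16 with 878 and 817 FPKM. Piwil1 (ENSMUSG00000029423, chromosome 5, 128702524 to 128755474, plus strand), which binds pachytene piRNAs, ranked 103 with 301 and 301 FPKM, and Pgk2 (ENSMUSG00000031233, chromosome 17, 40207015 to 40208640, minus strand), an autosomal phosphoglycerate kinase, ranked 189 with 208 and 213 FPKM. In each of the 4 genes the values of the libraries lay within 1.25-fold of each other, as they did in 75.7% of all detected genes (mean of at least 1 FPKM). The label was kept because the markers were high, which does not measure the purity of the fractions. In the same ranking the spermatid genes Tnp2, Prm1 and Prm2, at ranks 30, 52 and 64, stood above Piwil1 and Pgk2.

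Levels spread over a wide range with no single dominant transcript. A mean of at least 1 FPKM, used here as detected, was reached by 14300 ranked genes (30.3%). Of these, 5515 reached 10 FPKM, 573 reached 100 FPKM and 7 reached 1000 FPKM. The median of the detected genes was 6.23 and 6.24 FPKM. Ldhc alone held 0.857% and 0.792% of all FPKM, the 100 highest genes 19.002% and 18.8%, and the 1000 highest 53.7% and 52.2%. It took the 826 highest genes in replicate 1 and 888 in replicate 2 to hold 50% of the FPKM. Genes at 0 in both libraries numbered 16884. A further 4930 were above 0 in exactly 1 library, none of them above 5.41 FPKM. Depth was 15947305 and 16234010 recovered reads on genes. The deposited FPKM imply scaling to library sizes of 13999590 and 15135989, at which 1 read over 2 kb stands for 0.0357 and 0.0330 FPKM. The recovered reads exceed these sizes in both libraries. The reason was not tested, so the depth is approximate.

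**Figure D1:**
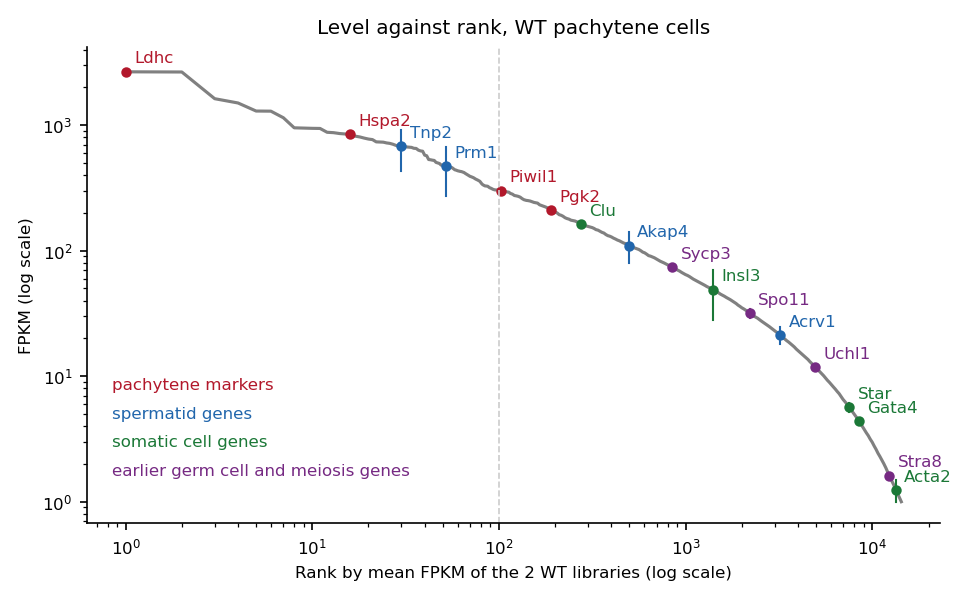
Mean FPKM of the ranked genes against rank, as a grey line with both axes logarithmic. Named genes are marked by points at their mean and vertical bars that span their 2 library values. Levels fell from 2658 FPKM at rank 1 to 302 at rank 100, 64.4 at rank 1000 and 2.97 at rank 10000.

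The 25 highest genes were led by enzymes, tubulins, tail proteins and RNA-binding proteins. After Ldhc stood mt-Co1, the mitochondrially encoded cytochrome oxidase subunit I, with 2778 and 2520.3 FPKM. The next were the near-identical alpha tubulins Tuba3a, with 1701 and 1546 FPKM, and Tuba3b, with 1571 and 1429.9 FPKM. Reads of such a pair can be split or shared by the counting, and Tuba3a also overlaps exons of 4930417O13Rik, so the level of each copy is uncertain. Rsph1, a radial spoke protein of the axoneme, had 1364 and 1225 FPKM. Ropn1l, a fibrous sheath and radial spoke protein, had 1179 and 1110.4 FPKM. Meig1, which is needed for sperm tail assembly, had 817 and 758 FPKM. All of these had the higher value in replicate 1, and in replicate 2 alone mt-Co1 stood above Ldhc.

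Y-box proteins, which bind mRNA and delay its translation in male germ cells, were the leading RNA-binding proteins. Ybx2 (MSY2) had 1289.8 and 1293 FPKM, Ybx3 (MSY4) 892 and 862 FPKM and Ybx1, at rank 34, 658 and 671 FPKM. The elongation factors Eef1a1, with 960.4 and 925 FPKM, and Eef2, with 755 and 707 FPKM, were also among the 25. So were the chaperone Hsp90aa1 (809 and 739.5 FPKM), the polyubiquitin gene Ubb (962 and 919 FPKM) and Mael (754 and 716 FPKM), a piRNA pathway protein. Metabolic genes were the cytochrome oxidase subunit Cox8c (945 and 947 FPKM), the phosphoglycerate mutase Pgam2 (824 and 785 FPKM), the phosphoglycolate phosphatase Pgp (763 and 770.0 FPKM), the sorbitol dehydrogenase Sord (741 and 726 FPKM) and the glutathione transferase Gstm5 (880.3 and 833 FPKM). The small membrane protein gene Smim24 had 990.0 and 913 FPKM. The mitochondrial genes mt-Cytb (794 and 839 FPKM) and mt-Nd1 (690.0 and 752 FPKM) completed the protein-coding genes of this set. Its remaining members were the long noncoding RNA Rbakdn and the pseudogene Dynlt1-ps1.

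Around rank 100 the values changed little from gene to gene. Haspin, a histone H3 kinase, ranked 98 with 324 and 284 FPKM and the processed pseudogene Gm10297 ranked 99 with 235 and 372 FPKM. Crat, a carnitine acetyltransferase, ranked 100 with 326 and 278 FPKM. Just outside were Dpep3, a dipeptidase of meiotic germ cells, with 315 and 289 FPKM, the poly(A)-binding protein gene Pabpc6 with 347 and 257 FPKM, and Piwil1. Of the 100 highest genes, 46 belonged to at least 1 of the 28 functional gene lists and 54 to none. When each library was ranked alone, 89 genes were in the 100 highest of both.

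Protein-coding genes made up 95 of the 100 highest genes, 10955 of the 14300 detected (76.6%) and 90.0% and 90.2% of the FPKM. Long noncoding RNA types supplied 2038 detected genes of 9556 and 5.73% and 5.58% of the FPKM. Rbakdn, a lincRNA, was the highest of them with 915 and 826 FPKM, followed by 1700008K24Rik with 602 and 538 FPKM and 1700018B24Rik with 288 and 222 FPKM. The next 7 ranged in mean from 181 FPKM in Gm11837 to 126 FPKM in 1700042G15Rik, and included 1700029M20Rik, 1700108J01Rik, 0610009L18Rik, 1700020N18Rik and C2cd6b. Gm11837 (190.0 and 171 FPKM) overlaps exons of the coding gene Necab1, and without known strand reads of the overlap cannot be told apart. Each of these top RNAs stood far above the median detected lncRNA, at 2.97 FPKM.

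Pseudogenes supplied 1082 detected genes of 12243 and 3.78% and 3.72% of the FPKM, with 3 among the 100 highest. Dynlt1-ps1, a processed copy of a dynein light chain gene, had 909 and 790.3 FPKM. Of its protein-coding relatives Dynlt1b had 176 and 156 FPKM, Dynlt1f 37.2 and 34, Dynlt1a 17.7 and 17.3 and Dynlt1c 6.56 and 10.8. Reads may be shared among these near-identical copies, and the division between them is uncertain. Gm7444 (417 and 295 FPKM) and Gm10297 were the other pseudogenes within the 100 highest. The next were 1700001J11Rik with 309 and 232 FPKM and 2810025M15Rik with 171 and 149.8 FPKM. Genes of the type TEC (to be experimentally checked) were detected in 217 cases, led by 1700097M23Rik with 138 and 123 FPKM.

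The abundant protein-coding genes were short. The median exon length was 1747 bases for the 95 coding genes among the 100 highest, 2804 for ranks 101 to 1000, 4200 for the other detected coding genes and 2978 for those below 1 FPKM. Genes whose transcripts have a single exon were 15.8%, 6.09%, 2.68% and 8.999% of these 4 sets. FPKM divides by length, so the order of abundant genes depends on that division. Ranked by recovered reads in place of FPKM, 48 of the 100 highest genes were shared, Ldhc ranked 4 and Cox8c, a short gene, ranked 462. The MYB core was found in the windows of 6.15% (4 of 65), 6.08% (41 of 674), 3.69% (293 of 7947) and 1.71% (134 of 7820) of the genes in the same 4 sets that matched RefSeq. Median GC content of the windows was 59.7%, 60.0%, 60.7% and 51.3%, and CpG counts also differed, with medians of 18, 21, 21 and 5. The part of base composition in the difference was not tested.

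Genes of mid to late pachytene, a list of spermatocyte transcripts, were all detected. The 34 members had a median of 132 FPKM, against 0.118 FPKM over all ranked genes and 1.01 FPKM over the protein-coding ones, and 25 of them ranked in the 1000 highest. Beside Tuba3b, Ybx2, Ybx3 and Meig1, the leading member was Crisp2, an acrosome and tail protein, with 538 and 459 FPKM. The transcription factor Dmrtb1, which acts at the entry into meiosis, had 512 and 448 FPKM. The lowest member was the X-linked RNA export factor Nxf2, with 2.56 and 3.16 FPKM.

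Structural genes of the meiotic chromosome were at moderate levels. Of 17 synaptonemal complex and cohesin genes 16 were detected, with a median of 15.9 FPKM. Syce1, a central element protein, was highest with 284 and 262 FPKM. The meiotic cohesin subunit Stag3 had 154 and 142 FPKM, and the lateral element proteins Sycp2 and Sycp3 had 97.5 and 93.5 FPKM and 74 and 72.8 FPKM. Smc1b, another meiotic cohesin subunit, had 55.7 and 57.1 FPKM. The cohesin gene Rad21l was the member below the limit, with 0.603 and 0.358 FPKM.

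Recombination genes were lower, with 25 of 28 detected and a median of 4.94 FPKM. Prr19, a crossover protein, was highest with 97.6 and 83.3 FPKM. The single-strand DNA binding protein Rpa1 had 90.7 and 65.7 FPKM, Psmc3ip (HOP2), which aids strand invasion, had 73.6 and 66.1 FPKM, and Hsf2bp, which binds BRCA2, had 32.2 and 29 FPKM. Spo11, which makes the double-strand breaks, had 34.6 and 28.8 FPKM. Its partners Rec114, with 0.783 and 0.88 FPKM, and Mei4, with 0.0173 and 0.0481 FPKM, stayed below 1 FPKM. Genes of the earlier leptotene and zygotene stages, 18 in number and partly the same genes, had a median of 10.1 FPKM with 15 detected. Beside Dpep3 they were led by the nuclear envelope protein gene Ccdc155 (KASH5), with 75.3 and 78.9 FPKM, and Meioc, which keeps germ cells in the meiotic program, with 71 and 69.7 FPKM. Prdm9, which places the double-strand breaks, had 0.381 and 0.414 FPKM.

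All 26 genes of the sex body and its damage response were detected, with a median of 11.5 FPKM. The highest after Mael was Trim28, a chromatin repressor, with 223 and 207 FPKM. Then came 1700102P08Rik (MAPS), the gene deleted in the other groups of the study, with 157 and 150.2 FPKM at rank 313. Zfp541, a chromatin factor of pachytene exit, had 134 and 118 FPKM. Mdc1, which spreads the damage mark over the sex chromosomes, had 89.6 and 86 FPKM. The histone H2afx, which carries that mark, had 41.9 and 45.3 FPKM, and the kinase Atm had 0.96 and 1.26 FPKM.

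The piRNA pathway ran higher than the chromosome axis and recombination lists, with 23 of 24 genes detected and a median of 43.1 FPKM. The chromatoid body protein Tdrd6 had 315 and 273 FPKM and the RNA helicase Ddx4 (VASA) 256 and 243 FPKM. Tdrd7 had 142 and 117 FPKM. Btbd18, a regulator of piRNA precursor transcription, was the member below the limit with 0.934 and 0.882 FPKM.

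Genes of the meiotic divisions were already present, with 27 of 28 detected and a median of 22.3 FPKM. Cks2, a subunit of the cyclin-dependent kinases, had 180.4 and 161 FPKM, the activator Cdc20 157 and 135 FPKM and the germ cell cyclin Ccna1 147 and 105 FPKM. Cyclin Ccnb2 had 133 and 116 FPKM and the kinase Aurka 123 and 97.6 FPKM. Ccnb3 was at 0.188 and 0.13 FPKM. Of the 27 genes, 22 were lower in replicate 2, with a median difference of -0.21 in log2(FPKM + 1). Over all detected genes 55.1% were lower and the median was -0.03. Abundant genes lay further down, at -0.14 for ranks 101 to 1000. Of the 28 listed genes, 5 ranked in the 1000 highest. In the next range of ranks, which holds the list's median rank of 3081, the median difference was -0.08. The list median of -0.21 lay below each of these values.

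Chaperones and RNA-binding proteins were abundant as groups. All 35 chaperone genes were detected, at a median of 108 FPKM, and 23 ranked in the 1000 highest. The list includes Tcp11 (352 and 378 FPKM), a sperm protein that is not known as a chaperone. Tcp1, a subunit of the CCT chaperonin, had 454 and 399 FPKM and Clgn (calmegin), which folds sperm surface proteins, 344 and 308 FPKM. All 32 genes of RNA binding and translation control were detected, at a median of 72.3 FPKM. Among transcription regulators, 29 of 30 were detected at a median of 18.2 FPKM. They were led, after Ybx2, by the histone reader Phf7 with 517 and 493 FPKM, Dmrtb1, Kctd19, a partner of ZFP541, with 302 and 269 FPKM and Tcfl5, a helix-loop-helix factor of spermatocytes, with 196 and 181 FPKM. Mybl1 itself had 30.1 and 22.6 FPKM.

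Ribosomal protein genes, 62 of 62 detected, had a median of 61.0 FPKM. Rplp0 was highest with 537 and 509 FPKM and Rplp1 followed with 323 and 331 FPKM. All 43 ubiquitin and proteasome genes were detected at a median of 29.6 FPKM, with Psmc3, a proteasome ATPase, at 323 and 292 FPKM and the germ cell subunit Psma8 at 124 and 117 FPKM. The 15 housekeeping genes, common references in other tissues, had a median of 17.6 FPKM and spread widely. Eef1a1 and Rplp0 ranked 10 and 45, Actb had 97.7 and 114 FPKM, and Gapdh had 0.639 and 0.591 FPKM. The ribosomal protein gene Rpl13a had 2.16 and 1.66 FPKM. Gapdh and Rpl13a have many processed pseudogenes, so the assignment of their reads is uncertain.

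The 13 mitochondrially encoded mRNAs were uneven. Their median was 247 FPKM, yet mt-Co2 had 50.9 and 41.2 FPKM, mt-Co3 21.7 and 17.3, mt-Atp6 17.6 and 23 and mt-Nd3 0.205 and 0.759. Near-identical copies of mitochondrial DNA lie in the nuclear genome, so the assignment of these reads is uncertain. Replication-type histone mRNAs end without a poly(A) tail for the most part, and the libraries were made with an mRNA kit. The testis linker histone gene Hist1h1t had 2.51 and 2.03 FPKM, while the polyadenylated variants H3f3b and H2afz had 166 and 201 FPKM and 153 and 154 FPKM. The part of the kit in this difference was not tested. Nuclear RNAs were low, with 6 of 14 detected, and Malat1 was highest at 17.7 and 20.2 FPKM. Xist was at 0.0358 and 0.0221 FPKM.

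**Figure D2:**
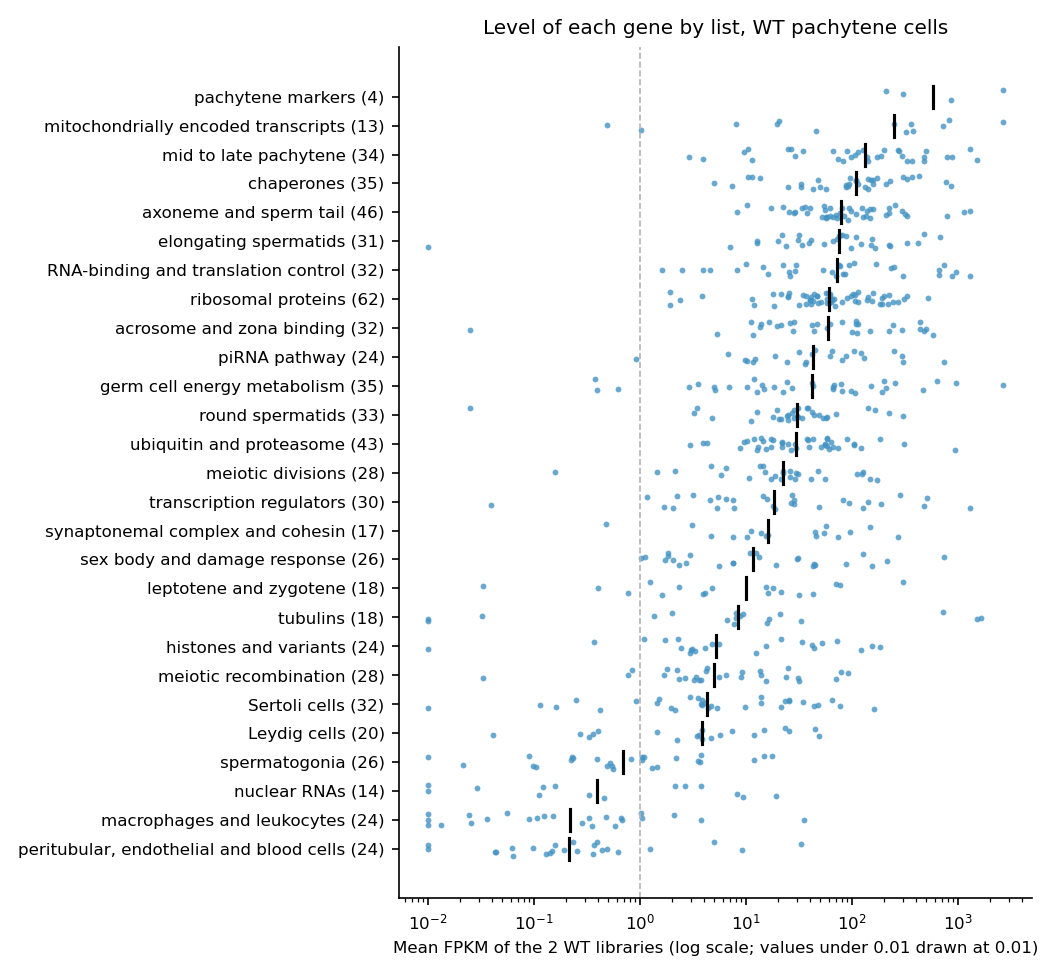
Mean FPKM of the genes of each list except the housekeeping genes, on a logarithmic axis, with 1 point per gene and a black bar at the list median, and a dashed line at 1 FPKM. Medians ran from 574 FPKM for the 4 pachytene markers, 247 FPKM for the mitochondrially encoded transcripts and 132 for mid to late pachytene down to 0.212 for peritubular, endothelial and blood cell genes.

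Energy metabolism genes, 32 of 35 detected, had a median of 41.9 FPKM, and germ cell forms of enzymes were far above their somatic relatives. The 26 pairs of a germ cell form and a related general form were written down after the levels had been seen, so their count is a description. The germ form was higher in both libraries in 23 pairs, at least 10 times higher in 17, and the median ratio of means was 27.3. The pairs include genes with near-identical copies or many processed pseudogenes (Tuba3a, Gapdh and the ribosomal protein genes), whose read assignment, and so whose ratio, is uncertain. Pgk2 was 73.5 times Pgk1, which is X-linked and had 3.02 and 2.71 FPKM. The pyruvate dehydrogenase subunit Pdha2, with 101 and 92.2 FPKM, was 586 and 158 times the X-linked Pdha1, which had 0.172 and 0.584 FPKM. The cytochrome oxidase subunit Cox7b2, with 224 and 177 FPKM, was 476 and 216 times the X-linked Cox7b, which had 0.471 and 0.816 FPKM. Pdha1 and Cox7b lay below 1 FPKM, so the size of these ratios is imprecise. The ribosomal protein gene Rpl10l was 70.8 times the X-linked Rpl10. In all 6 pairs whose general form is X-linked the germ form was higher in both libraries.

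Pairs whose general form is autosomal included both large and small ratios. Cox8c was 74.5 times Cox8a, and Hspa2 was 19.8 times Hspa8. Ldhc was 5.77 times Ldha, with Ldha itself at 489.9 and 432 FPKM. Ybx2 was 1.94 times Ybx1. The general form was higher in 3 pairs. These were Calr over Calr3 (240.1 and 216 against 8.41 and 12.5 FPKM), Pabpc1 over Pabpc2 (669 and 638 against 472 and 392 FPKM) and the linker histone H1f0 over Hist1h1t. An mRNA kit may miss Hist1h1t RNA without a poly(A) tail, so the order of that last pair is uncertain. The glucose transporter Slc2a3, an abundant member without a pair here, had 691 and 574 FPKM.

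**Figure D3:**
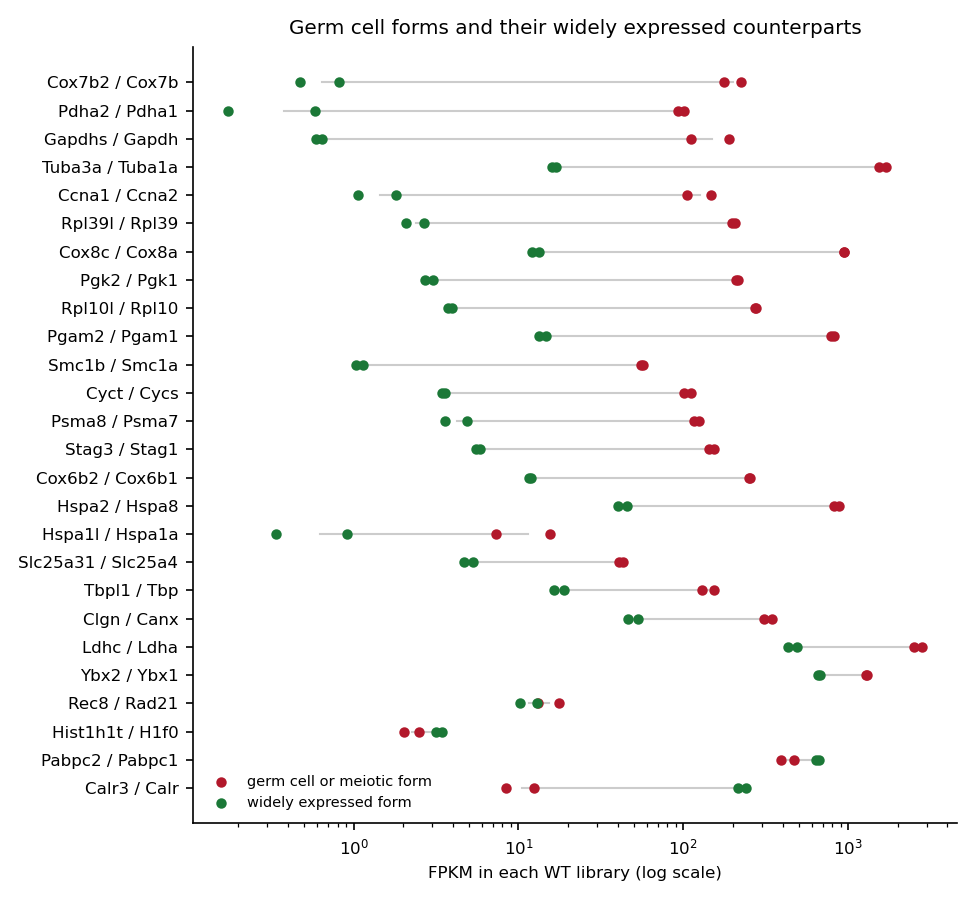
FPKM of the germ cell form and of the related general form for 26 pairs on a logarithmic axis, with 1 point per library. The germ form lies above in 23 pairs, and Calr3, Pabpc2 and Hist1h1t lie below their relatives in both libraries. The level of Hist1h1t is uncertain, since an mRNA kit may miss RNA without a poly(A) tail.

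Genes for sperm structures were abundant. All 46 axoneme and sperm tail genes were detected at a median of 78.7 FPKM. After Rsph1, Ropn1l and Meig1, the highest were Smcp, a mitochondrial capsule protein, with 244 and 412 FPKM and Cfap206, a radial spoke adaptor, with 325 and 301 FPKM. Acrosome and zona binding genes were detected in 31 of 32 cases, with a median of 59.7 FPKM. Dkkl1, an acrosomal protein, had 581 and 572 FPKM, the protease inhibitor Spink2 513 and 428 FPKM, and the membrane proteins Adam5 and Adam3 476 and 405 FPKM and 478 and 397 FPKM.

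Transcripts that are known chiefly from spermatids were present and were higher in replicate 2. In these purified fractions more spermatids and more RNA per cell cannot be told apart. The elongating spermatid list had a median of 75.7 FPKM, with 18 of its 31 genes in the 1000 highest. The round spermatid list had a median of 30.5 FPKM. For comparison, the medians were 43.1 FPKM for the piRNA pathway and 15.9 FPKM for the synaptonemal complex and cohesin list. Tnp2, a transition protein that replaces histones, had 432 and 919 FPKM and ranked 30. The protamine genes Prm1 and Prm2, whose products pack sperm DNA, had 273 and 669.9 FPKM and 258 and 583 FPKM. Tnp1 had 135 and 321 FPKM and overlaps exons of 1700027A15Rik. Each of these 4 genes was at least 2-fold higher in replicate 2 on the scale of log2(FPKM + 1), a step that 0.86% of the 14300 detected genes reached in this direction and 0.322% in the other. Odf1, an outer dense fibre protein, had 164 and 278 FPKM and moved less.

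The whole elongating spermatid list moved the same way. Its 31 genes summed to 2748 and 5111 FPKM, or 0.836% and 1.62% of all FPKM, a ratio of 1.86. Of its 30 detected genes 29 were higher in replicate 2 and 1 was lower, where 44.9% of all 14300 detected genes were higher. The median difference in log2(FPKM + 1) was 0.75 for the list, against -0.03 over all detected genes. Among the 33 round spermatid genes, 28 of 32 detected were higher, with a median of 0.52. They included Gsg1, a germ cell membrane protein, with 122 and 206 FPKM and the kinase gene Tssk2 with 53.8 and 85.5 FPKM. Some round spermatid genes went the other way, such as Spata16, an acrosome protein, with 248 and 201 FPKM and the ion channel gene Catsper2 with 155 and 125 FPKM. The mid to late pachytene list had a median of -0.12 and the axoneme list -0.13, at the level of all genes of ranks 1 to 100 (-0.12) and 101 to 1000 (-0.14).

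Of 26 spermatogonial genes 12 were detected, with a median of 0.694 FPKM. Over all ranked protein-coding genes 10955 of 21889 were detected, with a median of 1.01 FPKM. The list therefore lay near coding genes at large, and its count does not measure how much spermatogonial RNA the fractions hold. Egr4, a zinc finger factor of the male germ line, was highest with 16.9 and 17.9 FPKM and Id4, an inhibitor of helix-loop-helix factors, had 14.4 and 15.1 FPKM. Neurog3, a factor of undifferentiated spermatogonia, was at 0 reads in both libraries, where 3 reads would be 0.128 and 0.118 FPKM.

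Genes of the somatic lists held a small part of the FPKM, which does not measure how much somatic RNA the fractions hold. The 98 genes of the somatic lists, of 47249 ranked, held 0.249% and 0.299% of all FPKM, with 48 detected and a median of 0.795 FPKM. Over all ranked protein-coding genes 10955 of 21889 were detected, with a median of 1.01 FPKM, so the pooled lists lay near coding genes at large. The Sertoli (median 4.25 FPKM) and Leydig (3.85) lists lay above that median. The peritubular, endothelial and blood cell list (0.212) and the macrophage and leukocyte list (0.216) lay below it. Sertoli cell genes had the largest sum, 603 and 607 FPKM, and 26 of 32 were detected. Clu, a secreted chaperone, had 162 and 162 FPKM, the cystatin Cst9 77.8 and 74.1 FPKM and Amhr2, the receptor of anti-Muellerian hormone, 60.8 and 68 FPKM. The transcription factor Gata4 was at 4.37 and 4.4 FPKM, and the keratin Krt18 was at 0 in both libraries. Whether germ cells themselves express the leading genes of the list was not tested.

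Genes of Leydig cells, which make testosterone, summed to 159 and 255 FPKM, and 14 of 15 detected were higher in replicate 2, with a median log2 difference of 0.30, where 44.9% of all detected genes were higher. Insl3, a Leydig cell hormone, had 27.9 and 69.9 FPKM but overlaps exons of Jak3. The defining genes Cyp17a1, a steroid hydroxylase, and Star, the cholesterol carrier, had 13.6 and 15.8 FPKM and 5.21 and 6.09 FPKM. Macrophage and leukocyte genes summed to 35.8 and 58.4 FPKM, with 5 of 24 detected. Of that sum Aif1 made up 24.9 and 45.7 FPKM, while the leukocyte antigen Ptprc was at 0.0156 and 0.0108 FPKM. C1qa and Tyrobp had 0 reads in both libraries, where 3 reads would be 0.206 and 0.191 FPKM and 0.321 and 0.297 FPKM. Peritubular, endothelial and blood cell genes summed to 46 and 58.8 FPKM with 4 of 24 detected, and Actg2, a smooth muscle actin, made up 26.1 and 39.6 FPKM. The endothelial gene Pecam1 was at 0.356 and 0.382 FPKM and the fibroblast collagen Col1a1 at 0.141 and 0.171 FPKM. The globin genes Hbb-bt and Hba-a2 were at 0 in both.

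X-linked genes were fewer and lower than autosomal genes in both libraries. Of 2203 ranked X-linked genes 364 were detected (16.5%), against 32.0% of autosomal genes and 24.5% to 47.6% over single autosomes. Among protein-coding genes the shares were 30.7% on the X and 51.5% on autosomes, where no autosome was below 41.7%. The median detected coding gene stood at 2.74 FPKM on the X and 8.57 FPKM on autosomes, with the lowest autosome, chromosome 14, at 5.81. The median of all detected X-linked genes was 0.371 and 0.456 times that of autosomal genes. The X chromosome held 0.524% and 0.702% of the FPKM. At 10 FPKM or more were 34 X-linked genes, 9.34% of those detected, against 39.3% on autosomes.

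X-linked genes were absent from the 100 highest, which held 94 of the 13905 detected autosomal genes. Among the 1000 highest 2 were X-linked, or 0.549% of the detected X-linked genes, against 7.12% of the detected autosomal genes. These were Akap4, a fibrous sheath protein of the sperm tail, with 79.3 and 140.2 FPKM and Tsga8, a nuclear protein of haploid cells, with 61.2 and 98.7 FPKM. Both are known from spermatids and both were higher in replicate 2. The next were the pseudogenes Rpl21-ps15 (50.6 and 48.1 FPKM), Rpl30-ps10 (41.8 and 52.2 FPKM) and Gm6472 (42.4 and 45.2 FPKM), and the reads of such copies are uncertain. Among the 364 detected X-linked genes 263 were higher in replicate 2 and 101 lower, with a median log2 difference of 0.19. Of 13905 autosomal genes 6137 were higher and 7768 lower, with a median of -0.04. The spermatid lists moved in the same direction, and their part in this shift was not tested. On the Y chromosome 12 of 1494 genes were detected. Eif2s3y, a translation factor subunit, was the highest with 4.05 and 4.99 FPKM. Gm29089, a lincRNA, had 0.119 and 7.02 FPKM and Gm20827 2.77 and 3.61 FPKM.

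**Figure D4:**
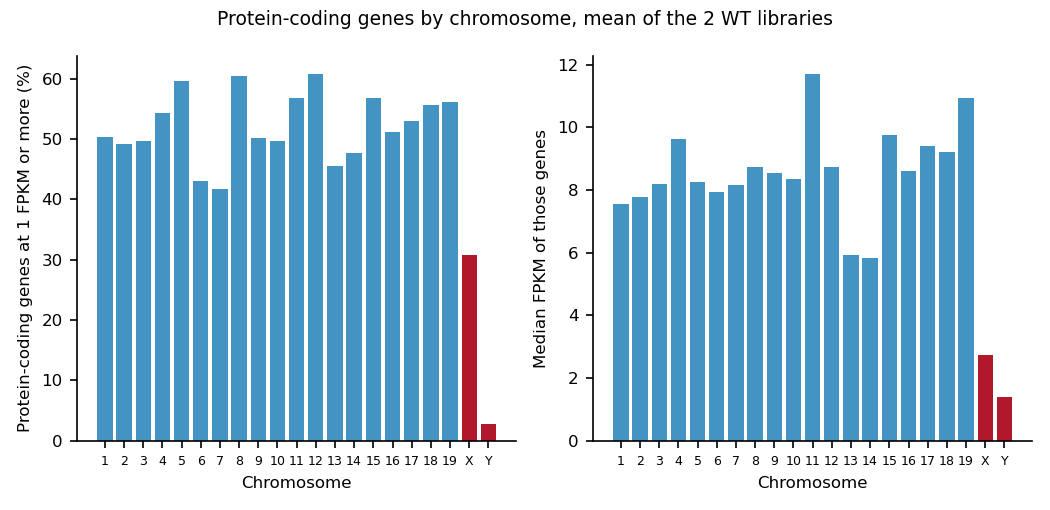
Protein-coding genes by chromosome, as bars of the percentage at a mean of at least 1 FPKM (left) and of the median mean FPKM of those genes (right). The X chromosome has 30.7% of its coding genes at that level and the autosomes 41.7% to 60.8%, and its median of 2.74 FPKM lies below that of each autosome.

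The libraries were close for most genes. Across the 14300 detected genes the Pearson correlation of log2(FPKM + 1) was 0.982 and Spearman's rho was 0.971. Genes are not independent replicates, and these are descriptions. The values lay within 1.25-fold of each other in 75.7% of genes, and the middle 90% of log2 differences ran from -0.42 to 0.62. At least 2-fold higher in replicate 2 were 123 genes (0.86%), and at least 2-fold lower were 46 (0.322%). These counts depend on the added 1 FPKM and on the scale. They were 341 and 162 with 0.1 FPKM added and 637 and 332 on the scale of TPM. In TPM each library has the same total, which is above the 335071 and 321463 FPKM of the files, so 1 TPM is less than 1 FPKM. An added 1 weighs less there, and those counts reflect more than equal totals. Centring on the median difference alone gave 147 and 42. A difference between 2 libraries of 1 group has no replicate check. The intervals below are exact binomial counting intervals on recovered reads. They cover counting error only, since reads without molecular identifiers are not independent molecules.

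Of the 123 genes higher in replicate 2, 5 ranked in the 1000 highest. These were Prm1, Prm2, Tnp1, Tnp2 and H1fnt, all from the elongating spermatid list, and with Tssk6 and Car2 the genes from a spermatid list numbered 7. For Prm1, with 2183 and 5790 reads, the ratio of FPKM was 2.45 (95% counting interval 2.33 to 2.58). For Prm2 it was 2.26 (95% counting interval 2.17 to 2.36), for Tnp1 2.38 (95% counting interval 2.19 to 2.58) and for Tnp2 2.13 (95% counting interval 2.04 to 2.22). These 4 genes are given here because the same values passed the 2-fold limit, so the intervals are no separate check of it. The linker histone H1fnt of elongating spermatids had 46 and 97.3 FPKM, at a log2 difference of 1.06. The kinase gene Tssk6 had 18.1 and 43.3 FPKM, at 1.21, and overlaps exons of Ndufa13 and Yjefn3. Car2, a carbonic anhydrase in the elongating spermatid list, had 3.51 and 10.5 FPKM. Among the 123 were also 12 X-linked genes, or 3.30% of the 364 detected X-linked genes, beside 0.86% of all detected genes.

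The largest differences belonged to less abundant genes. With a mean of at least 5 FPKM, the gene with the largest excess in replicate 2 was the X-linked Gm14632, with 0.413 and 11.6 FPKM from 5 and 152 reads. Ccl27 (2.18 and 12.5 FPKM), a chemokine gene copy on a scaffold outside the assembled chromosomes, came next, followed by Gm6812 (2.99 and 11.3 FPKM), Gm6660 (2.59 and 8.75 FPKM), Gm33337, Hmgb1-rs17, 1700015G11Rik and Car2. The largest in the other direction were Rps27rt, a retrogene of a ribosomal protein, with 82.3 and 26.7 FPKM and a ratio of 0.324 (95% counting interval 0.267 to 0.391), and the pseudogene Gm4149, with 15 and 4.55 FPKM. Gm36704, Gm8186, 4930558F17Rik, Speer1 (51.9 and 21.4 FPKM), Gm8890 and Rpl38-ps2 followed. Of the 46 genes that were lower, 23 were pseudogenes and 5 were protein-coding, while 43 of the 123 higher genes were protein-coding. Reads that match several copies make the values of pseudogenes uncertain.

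**Figure D5:**
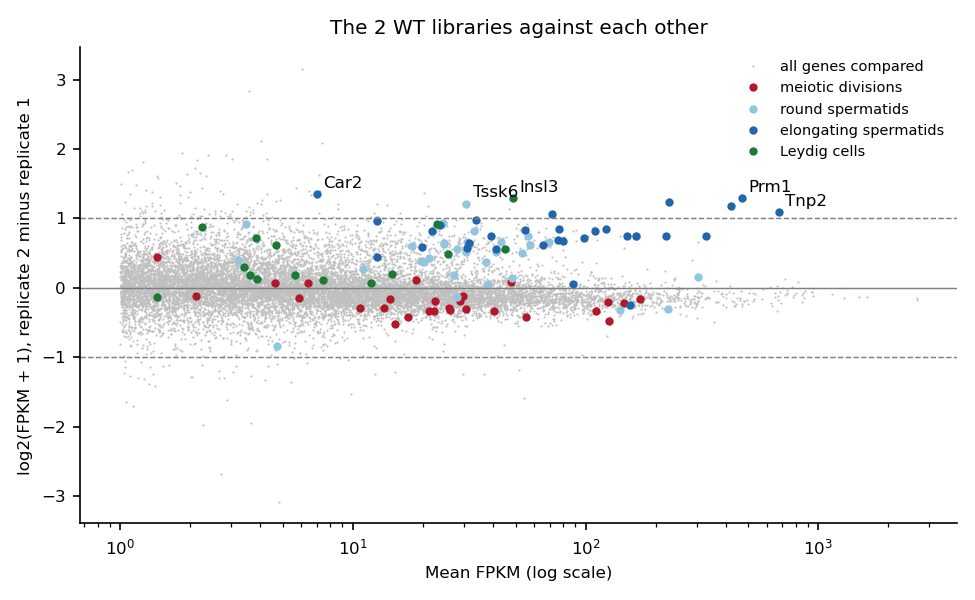
Difference between the libraries, log2(FPKM + 1) of replicate 2 minus replicate 1, against mean FPKM on a logarithmic axis, with all compared genes in grey and genes of the elongating spermatid, round spermatid, Leydig cell and meiotic division lists in colour; dashed lines mark a 2-fold difference. Most genes lie near 0, with 44.9% above it. The elongating spermatid genes lie above 0 in 29 of 30 cases, with a median of 0.75.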

How the data were processed

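RNA was measured in the 2 WT libraries, for which a SMARTer mRNA-seq kit was used on 1.3 µg of RNA, per the labels' protocols. The authors deposited FPKM per Ensembl gene. As genome builds the submitters' processing notes list GRCm38 and mm10. Alignment and counting tools, gene model release and strand: not given in the sources used here. GENCODE M21 supplied symbols, gene types, positions and exon-union lengths for 54495 of the 54532 genes. FPKM times exon length gave whole reads for 97.0% of values above 0 in each library (tolerance 0.01), from which read numbers and intervals at 95% were computed, and 3 reads served as the upper limit for genes at 0.

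Short RNA genes (miRNA, snRNA, snoRNA, scaRNA, rRNA, tRNA and misc_RNA types, or exon length under 200 bases) were not ranked, nor was the lower entry where a symbol was repeated. Differences between the libraries are log2(FPKM + 1) of replicate 2 minus replicate 1 for genes with a mean of at least 1 FPKM. The added 1 FPKM understates differences of low genes. Promoters matched RefSeq by symbol. With 1 group and 2 libraries no test was made. The members and the 28 lists were chosen with earlier results of these data known, and a few misplaced or alias entries were dropped from 2 lists after their values had been seen. Genes named are the 25 highest; the 4 markers; up to 5 highest members of each list and members near 0 that define another cell type; the 10 highest lncRNA genes, 5 pseudogenes, 5 X-linked and 3 Y-linked genes; the highest TEC gene; the 8 largest differences each way above 5 FPKM; and 3 genes on each side of rank 100. The germ and general form pairs, dynein light chain copies, further list members and spermatid genes past 2-fold were named after their values had been seen. Alternatives were TPM computed from the FPKM, other pseudocounts and filters, centring, short RNAs kept, protein-coding genes only, recovered reads and each library left out. The calculations were tested on simulated data and used matplotlib 3.10.9, scipy 1.17.1, numpy 2.4.6 and pandas 2.3.3 under Python 3.11.15.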

Additional observations from a re-analysis of the deposited data

How the results depend on the processing

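The 100 highest genes held 18.9% of FPKM, and 19.07% with short RNAs kept, 20.5% among protein-coding genes, 15.1% of recovered reads, and 18.8% to 19.11% without either replicate. Of these genes 93 to 99 stayed in the 100 highest under the other rankings, and 48 when ranked by recovered reads. Detected genes numbered 13527 with the lower library at 1 FPKM or more and 19220 at a mean of 1 TPM, a lower limit than 1 FPKM. Genes at least 2-fold higher in replicate 2 numbered 341 with a pseudocount of 0.1, 212 with 0.5, 31 above 5 FPKM and 637 on the TPM scale, against 123. Those at least 2-fold lower numbered 162, 88, 13 and 332 under the same settings and 87 with no filter, against 46. The elongating spermatid difference of 0.75 became 0.76 with a pseudocount of 0.1, 0.81 on the TPM scale and 0.78 after centring. The X-linked median over the autosomal one, 0.413 from mean FPKM, was 0.520 above 5 FPKM, 0.49 with no filter, 0.317 for coding genes, and 0.371 to 0.456 without either replicate. The median difference of all detected genes, -0.03, was 0.03 on the TPM scale and 0 with no filter. Differences of the other lists and of X-linked genes were computed on the deposited scale only. No paired analysis was possible because a single group was described and no test was made. At this depth a gene of 2 kb below about 0.1 FPKM rests on about 3 reads.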

Other observations

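Short RNA genes, left out of the ranking, held 1.86% and 1.85% of all FPKM, and 542 of 7218 had a mean of at least 1 FPKM. Gm23935, annotated as a miRNA of 57 bases, had 2152 and 1945 FPKM from 1717 and 1678 reads. Mir7232 had 205 and 205 FPKM. The mitochondrial ribosomal RNA genes mt-Rnr2 and mt-Rnr1 had 94.5 and 105 FPKM and 54.4 and 71.5 FPKM.

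Among the 54 genes of the 100 highest that no functional list held, several are known germ cell genes. Hspb9, a testis small heat shock protein, had 696 and 665 FPKM, and Spata4, a spermatogenesis gene, had 741 and 639 FPKM. Fhl4, a LIM domain protein of the testis, had 744 and 588 FPKM. Gpx4, the selenoprotein of the sperm mitochondrial capsule, had 469.7 and 457 FPKM, and Catsperz, a subunit of the sperm calcium channel, 482 and 435 FPKM. Fbp1, an enzyme of gluconeogenesis, had 511 and 446 FPKM, and Gk2, an autosomal glycerol kinase, 399 and 344 FPKM. All 7 were higher in replicate 1, as were 83 of the 100 highest genes. They were named after their values had been seen.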
